A study of Mus musculus with 17 samples.

Results

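Il5-high skin ILCs were the cells of a single-cell RNA-seq library of mouse skin innate lymphoid cells that carried 5 or more counts of Il5, the gene of the eosinophil growth factor interleukin-5. They were compared with cells of the same library that had 0 Il5 counts. Cells with at least 200 genes detected and under 10% of counts in mitochondrially encoded genes were kept, which left 4106 of 4444 cells. Of these, 599 were Il5-high (14.6%, exact 95% interval 13.5% to 15.7%), 2633 were Il5-zero and 874 had 1 to 4 Il5 counts. Because the cells were chosen on Il5, the Il5 values below describe the choice and carry no test. In all, the series held 17 libraries.

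Group 2 innate lymphoid cells (ILC2s) are tissue lymphocytes without rearranged antigen receptors that depend on the transcription factor GATA3. They respond to alarm cytokines of the epithelium, among them interleukin-33, whose receptor chain ST2 is the product of Il1rl1, and interleukin-18, whose receptor chain is the product of Il18r1. They then secrete interleukin-5, which sustains eosinophils, and interleukin-13, which acts on epithelium, fibroblasts and dendritic cells. In skin, ILC2s are known to carry the interleukin-18 receptor more than ST2.

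All cells were sorted from skin as live, CD90-positive cells without lineage markers or the γδ T cell receptor, from mice of C57BL/6 background. The age and sex of the mice were not given in the sources used here. Besides the skin library there were single-cell libraries of dorsal skin at 0 and 10 days after depilation, which starts a new hair cycle, and 14 bulk RNA-seq libraries. The mice behind 10 of the bulk libraries carried a fate-map (fm) reporter, whose mark stays on once the driving gene has been active, so that reporter-positive cells are those in which it is or was on. These were reporter-positive and reporter-negative cells of mice labelled as carrying floxed Gata3 (fm_pos_Gata3flox and fm_neg_Gata3flox, n = 3 each) and of mice without that label (fm_pos and fm_neg, n = 2 each). The other 4 came from Gata3 fl/fl CreERT2 mice, whose Cre acts after tamoxifen (Gata3KO_tamoxifen, n = 2), and from wild-type mice (WT_tamoxifen, n = 2), all given 3 intraperitoneal injections of 5 mg tamoxifen. The labels do not say which promoter drives CreERT2, whether animals were pooled, or whether libraries of 1 group came from separate animals. A p-value below therefore speaks only of the spread among these libraries, which may be technical.

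Il5 lies on chromosome 11 of GRCm38, at 53720794 to 53725103, in a cluster with Il13, Il4 and Csf2. The 250 bases before the annotated starts of 3 genes that were high in these cells are shown from RefSeq (GRCm38.p6), because GATA3, whose gene was also higher in the cells, binds GATA motifs. Capitals mark AGATAA, or the same letters with G last, with T first or with both, searched on both strands. The windows are chr11:53720544-53720793 on the plus strand for Il5, chr11:53634703-53634952 on the minus strand for Il13 and chr1:40429320-40429569 on the plus strand for the first of 2 starts of Il1rl1.
Il5: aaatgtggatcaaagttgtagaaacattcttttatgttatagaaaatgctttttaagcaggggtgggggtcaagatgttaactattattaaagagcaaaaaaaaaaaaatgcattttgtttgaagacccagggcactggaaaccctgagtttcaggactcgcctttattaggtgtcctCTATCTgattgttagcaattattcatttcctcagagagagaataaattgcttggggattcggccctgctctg
Il13: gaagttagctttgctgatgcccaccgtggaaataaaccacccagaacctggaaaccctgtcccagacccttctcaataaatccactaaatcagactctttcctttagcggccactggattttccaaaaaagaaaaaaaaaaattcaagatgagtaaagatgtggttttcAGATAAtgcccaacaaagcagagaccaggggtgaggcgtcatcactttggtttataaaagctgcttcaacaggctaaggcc
Il1rl1: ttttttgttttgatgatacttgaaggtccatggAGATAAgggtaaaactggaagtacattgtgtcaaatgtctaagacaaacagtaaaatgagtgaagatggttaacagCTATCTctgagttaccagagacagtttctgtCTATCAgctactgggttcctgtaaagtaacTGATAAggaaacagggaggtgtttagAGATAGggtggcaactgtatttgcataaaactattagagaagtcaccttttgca

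The motif of the Il5 window began 72 bases before the start and that of the Il13 window 81 bases before it. The Il1rl1 window held 5 motifs, and the window of the other Il1rl1 start held 1. Of 32851 RefSeq mouse promoter windows of this length, 26.5% held at least 1 such motif and 6.40% held 2 or more. A match is a run of letters and no measurement of binding.

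The Il5-high cells differed widely in Il5. Their median was 11 counts, with quartiles of 7 and 21 and a maximum of 156. The 60 cells with the most Il5 held 34.5% of all Il5 counts of the 599, and Il5 took between 0.0845% and 2.97% of a cell's counts. Together the 599 cells held 86.6% of the 12308 Il5 counts of the library. At the threshold, 68 cells had exactly 5 Il5 counts and 97 had exactly 4. Among cells of middle depth, Il1rl1 stood at 2.25 counts per 10000 total counts at 5 Il5 counts and 1.64 at 4, and Gata3 at 24.0 and 21.8.

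Depth moved with the choice. Il5-high cells had a median of 3191 counts and 1429 genes, against 2071 counts and 1057 genes in Il5-zero cells, and the Il5-high share was 3.31%, 7.93%, 16.7% and 30.4% over 4 bins of equal cell number from shallow to deep. Each Il5-high cell was therefore matched to the Il5-zero cell nearest in total counts, at most 5% apart. This gave 590 pairs with a median of 3169 counts in both sets, and 9 Il5-high cells with 5209 or more counts stayed unmatched. All ratios below compare these matched sets as counts per 10000 total counts. With 1 library there is no test: intervals are 95% Poisson intervals, and they and the intervals of shares cover counting error only.

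Most Il5-high cells carried markers of ILC2s. Of the 599, 594 had counts of Rora, a transcription factor ILC2s need, 573 of Gata3, 555 of the costimulatory receptor Icos, 506 of Il7r and 350 of the chemokine receptor Ccr8. Il18r1 was counted in 429 of them, Il1rl1 in 209, Il13 in 255 and Il17rb, the interleukin-25 receptor of intestinal ILC2s, in 43. Such markers were not limited to Il5-high cells. Gata3 was counted in 95.6% of matched Il5-high and 81.2% of matched Il5-zero cells, Il13 in 42.5% and 22.5%, and Il1rl1 in 34.6% and 4.75%. The T cell receptor genes Cd3d, Cd3e and Cd3g summed to 0 in 536 of the 599. The myeloid markers C1qa, C1qb, C1qc, Csf1r, Lyz2, Cd68 and Adgre1 summed to 0 in 571.

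Il5 counts were also found in cells with myeloid markers, which should lack the gene, and in cells without a Gata3 count. Of 52 cells with 3 or more counts of the same myeloid markers (median depth 2602), 26.9% had an Il5 count. In 7.69% there were 5 or more (exact interval 2.14% to 18.5%). Of 844 cells with 0 Gata3 counts (median depth 1799), which at this depth may still express Gata3, 14.1% had an Il5 count and 3.08% had 5 or more. In cells with Gata3 (median depth 2498) these shares were 41.5% and 17.6%. The depths of these sets differ, the Il5-high share moves with depth, and the interval of the myeloid set holds the 17.6%. The part of free RNA and mixed droplets in these counts was not tested.

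In the depth-matched skin library, 4941 genes had at least 100 summed counts. Leaving out Il5, 46 of them (0.931%) were at least 2-fold higher in Il5-high cells and 75 (1.52%) at least 2-fold lower, and the median log2 ratio of all was -0.05. Most of the transcriptome thus lay within 2-fold of the Il5-zero cells. The gene lists below were chosen with earlier results of these data known, and their counts are read against these shares.

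Secreted factors of type 2 responses were among the higher genes. Of 10 with enough counts, 5 were past 2-fold higher and 1, Tnf, past 2-fold lower, with a median log2 ratio of 1.02 against -0.05 for all genes. Il13 had 1150 counts (6.05 per 10000) in Il5-high cells and 328 (1.74 per 10000) in Il5-zero cells, a ratio of 3.47 (3.07 to 3.94). Calca, which encodes the neuropeptide CGRP, had 846 counts in Il5-high and 194 in Il5-zero cells, 4.32-fold higher (3.69 to 5.08). Both genes are known ILC2 products.

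Csf2, the gene of the growth factor GM-CSF, had 462 counts in Il5-high cells against 173 in Il5-zero cells (ratio 2.65, 2.22 to 3.17). Ccl1, the ligand of the receptor CCR8, had 336 against 77 (ratio 4.32, 3.37 to 5.61). Penk, the proenkephalin gene, had 109 against 8, but 1 Il5-high cell held 43.1% of the 109, and the ratio was 13.5 with that cell and 7.69 without it. The share of cells with a Penk count barely differed, at 1.53% of Il5-high and 1.19% of Il5-zero cells. In the day 10 dorsal library Penk had 38 against 32 (ratio 1.18, 0.719 to 1.95), and on day 0 it had no counts. Areg, which encodes the epithelial growth factor amphiregulin, differed less, with 1088 counts against 707 (ratio 1.52, 1.39 to 1.68). Il4 was scarce, with 25 counts against 19, and 60% of its 25 counts came from 1 cell.

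The products were spread unevenly over the cells. Of Il13, Csf2, Areg, Calca, Ccl1 and Penk, at least 2 were counted in 53.4% of matched Il5-high cells and 26.9% of matched Il5-zero cells. None of the 6 was counted in 16.8% of Il5-high and 36.1% of Il5-zero cells, and no cell of either set had all 6. With each Il5-high cell thinned to 1000 counts, Il13 was counted in 25.6%, Areg in 29.0%, Calca in 20.1% and Csf2 in 13.3%, and unthinned in 42.6%, 51.6%, 32.6% and 23.5%. A large part of the cells with many Il5 transcripts therefore had no Il13 count at either depth.

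Receptors and surface molecules of ILC2s gave the 2 largest ratios. Il1rl1 had 1409 counts (7.42 per 10000) in Il5-high cells and 84 (0.446 per 10000) in Il5-zero cells, 16.6-fold higher (13.3 to 21.0). It was the highest ratio of the library after Il5 itself. Klrg1, an inhibitory receptor of mature ILC2s, had 131 counts against 8 (ratio 16.2, 7.99 to 38.4). Il2ra, the high-affinity chain of the interleukin-2 receptor, had 3190 against 1317 (ratio 2.40, 2.25 to 2.56), and Il10ra, the interleukin-10 receptor chain, 222 against 106 (ratio 2.07).

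Of the 23 ILC2 identity genes with enough counts, 4 were past 2-fold higher (Il1rl1, Klrg1, Arg1 and Il2ra) and none past 2-fold lower. Arg1, the arginine-degrading enzyme that ILC2s use in proliferation, had 145 counts against 34 (ratio 4.22, 2.89 to 6.33). Gata3 fell just short of 2-fold, with 4897 counts (25.8 per 10000) in Il5-high and 2552 (13.6 per 10000) in Il5-zero cells, a ratio of 1.90 (1.81 to 1.99). Among 18 homing and residency genes, Ccr4, a receptor of skin-homing lymphocytes, was 5.39-fold higher (98 counts against 18) and Ccr2, a receptor for monocyte chemokines, 2.08-fold higher (359 against 171).

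Further genes among the 12 highest were Slc7a8, an amino acid transporter (109 against 18, ratio 6.00), the adaptor gene Nck2 (166 against 51, ratio 3.22) and Enpp4, an ectoenzyme gene (97 against 31, ratio 3.10). No gene of the lists for ER folding and secretion (25 with enough counts), ribosome biogenesis (19), survival (15), glycolysis (15), lipid handling (10) or interferon response (10) was past 2-fold in either direction, in cells that gave 0.545% of their counts to a single secreted protein. Their median log2 ratios lay between -0.11 and 0.30. Single genes differed by less than 2-fold, with log2 ratios from -0.75 to 0.90 in glycolysis and from -0.80 to 0.98 in lipid handling. The glycolysis gene Ldha had 2395 counts against 1313 (ratio 1.81, 1.69 to 1.93). The lipid handling genes summed to 33.1 counts per 10000 in Il5-high and 22.3 in Il5-zero cells.

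Named genes lower in Il5-high cells included genes of stress, of the cell cycle and of other cells. The heat shock genes Hspa1a (87 counts in Il5-high, 638 in Il5-zero cells, ratio 0.135, 0.107 to 0.169) and Hspa1b (203 against 930, ratio 0.216) were past 2-fold lower, and the other 8 of the list were not. Of 6 cell cycle genes the proliferation marker Mki67 (18 against 90, ratio 0.198) and the topoisomerase gene Top2a (51 against 118, ratio 0.428) were lower. The median mitochondrial share, which moves with cell quality, was 3.82% in matched Il5-high and 4.08% in matched Il5-zero cells, and its part in the heat shock ratios was not tested.

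Of 41 genes induced through NFAT, AP-1 and NF-kB, none was past 2-fold higher and 3 were lower, with a median log2 ratio of -0.23. These were the phosphatase gene Dusp2 (157 counts against 427, ratio 0.364), Tnfsf9, which encodes the 4-1BB ligand (161 against 385, ratio 0.414), and the NF-kB regulator Nfkbid (498 against 1087, ratio 0.454). In sum these transcripts were thus not higher in Il5-high cells, with 385 counts per 10000 against 410 in depth-matched Il5-zero cells. Single genes were higher, with log2 ratios up to 0.98. Pdgfb, a platelet-derived growth factor gene, was lower too (93 against 219, ratio 0.421).

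Cytokine genes of other ILC classes had few counts in both sets. The 16 ILC3 and type 17 genes summed to 10.5 counts per 10000 in Il5-high and 13.5 in Il5-zero cells. The 19 ILC1 and NK genes summed to 3.90 and 5.98. Il17a had 55 counts in Il5-high and 45 in Il5-zero cells (ratio 1.21, 0.802 to 1.84) and Il22 75 against 86 (ratio 0.864, 0.625 to 1.19), so neither interval excluded 1. Ifng, the interferon gamma gene, had 3 counts against 11, and Tbx21, which encodes the ILC1 factor T-bet, 8 against 21 (ratio 0.377, 0.145 to 0.887). The cytotoxic granule gene Nkg7 (122 against 250, ratio 0.483), the chemokine gene Ccl5 (38 against 76, ratio 0.495) and the inhibitor of E proteins Id3 (30 against 74, ratio 0.402) were past 2-fold lower. For Ccl5, 1 Il5-zero cell held 47 counts, and without that cell the ratio was 1.29.

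Summed levels of the T cell, B cell, myeloid and MHC class II markers were lower in Il5-high cells. The 19 T cell genes summed to 12.9 counts per 10000 in Il5-high and 15.1 in Il5-zero cells, with 2 of 10 past 2-fold lower (Trdc and Cd3e) and Cd8a, Cd8b1, Cd5, Foxp3 and Themis at 0. The most abundant, the T cell receptor constant genes Trbc1 and Trbc2, had 846 counts against 662 (ratio 1.27, 1.14 to 1.40) and 507 against 680, and the costimulatory receptor gene Cd28 had 296 against 195 (interval of the ratio 1.25 to 1.81), so Trbc1 and Cd28 were higher in Il5-high cells. The 8 B cell genes summed to 0.258 against 2.16 per 10000, most of it from the immunoglobulin gene Ighm (28 against 122) and the kinase gene Blk (9 against 85). The 15 myeloid genes summed to 0.663 against 2.21, with S100a9 and Cd207 at 0, and the 7 MHC class II genes to 2.54 against 3.67, with H2-Ab1 at 50 counts against 111. Shares of cells with a count did not all follow the sums. H2-Ab1 was counted in 5.08% of Il5-high and 3.90% of Il5-zero cells and Ighm in 3.73% and 3.22%. Blk was counted in 1.19% and 6.27%, and Lyz2 in 0.339% and 1.19%. A single Il5-zero cell held 37 of the 111 H2-Ab1 counts, and without it the ratio was 0.668. Among cells with Gata3 and no T cell, myeloid or H2-Aa counts, Ighm and H2-Ab1 had log2 ratios of 1.49 and 0.29, so their direction flipped. This limit itself removes cells by H2-Aa, a gene of the same MHC class II list. Both genes are scarce and no interval is given for these ratios, so the flip carries little weight.

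Several of the 8 lowest ratios rested on few cells. All 110 counts of the interferon-induced gene Ifi202b in Il5-zero cells came from 1 cell, as did 150 of 155 counts of Serpinb2, a protease inhibitor gene, and 153 of 250 counts of Ly6c2, a monocyte and lymphocyte surface antigen gene. The lysozyme gene Lyz2 had 45 counts against 265 (ratio 0.168), of which 119 lay in 1 Il5-zero cell and 97.8% of the 45 in 1 Il5-high cell, and the metallothionein gene Mt2 had 3 against 110, of which 56 did. Without its top cell, Lyz2 stood at a ratio of 0.304 and Mt2 at 0.0548. The immunoglobulin light chain gene Igkc had 41 against 248 (ratio 0.164).

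Most abundant markers of the remaining lists had counts near equal between Il5-high and Il5-zero cells. The keratinocyte genes Sfn and Perp had 194 against 180 and 122 against 106, the endothelial genes Pecam1 and Emcn 31 against 25 and 3 against 3, and the macrophage gene Cd68 26 against 30. All 13 keratinocyte genes together were lower, at 1.84 per 10000 in Il5-high and 2.40 in Il5-zero cells. Of the 13, 6 were at 0 in Il5-high cells, among them Krt5 and Krt14. Cd74, the invariant chain of MHC class II, had 343 against 392. Hdc, the histamine-forming enzyme, had 15 against 16, the collagen genes Col1a1 and Col3a1 6 against 4 and 0 against 1, and Cyp11a1 had 1 count in each set. Fibroblast and endothelial genes in sum were below 0.2 per 10000 in both sets.

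Within a window of middle depth (2496 to 3852 counts), several genes of the Il5-high cells were higher in cells with many Il5 counts, though not at every step. Over cells with 0, 1, 2 to 4, 5 to 9, 10 to 19 and 20 or more Il5 counts, Il1rl1 stood at 0.511, 1.25, 1.36, 3.81, 6.36 and 13.6 counts per 10000. Il13 stood at 1.79, 2.55, 2.58, 4.63, 6.50 and 10.6, and Gata3 at 14.6, 18.9, 18.6, 23.1, 28.6 and 31.9. All 3 genes were highest in cells with 20 or more Il5 counts and lowest in cells with none.

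Other genes did not follow the Il5 count in this way. Hspa1a stood at 5.49 counts per 10000 at 0 Il5 counts, 1.44 at 1 count, 0.553 at 2 to 4 counts and 0.268 at 20 or more, so its main difference lay between cells with none and cells with any Il5. Icos stood at 22.0 at 0 counts and 30.2 at 1 count, and at 29.9, 29.8 and 37.6 in the 3 bins of Il5-high cells. Il18r1 stayed between 5.33 and 7.13 over all 6 bins.

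**Figure D1:**
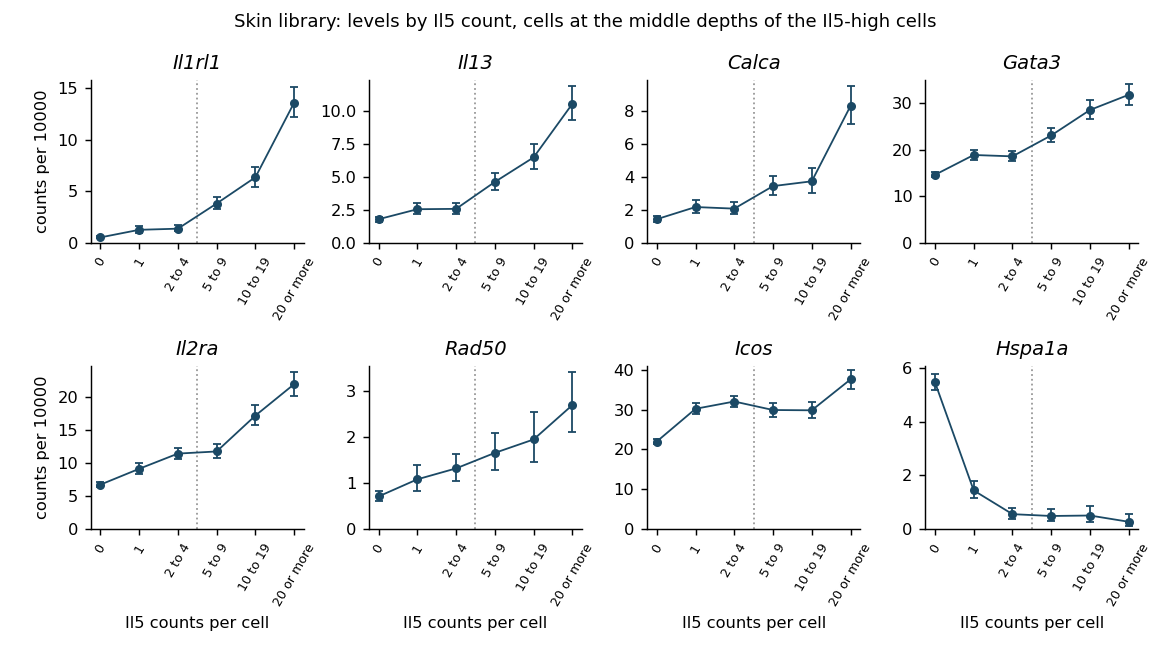
Levels of 8 genes (vertical axes, counts per 10000 total counts) in skin-library cells of middle depth, by Il5 counts per cell (horizontal axes, 0 at the left). Points are summed counts of the cells of a bin, bars are 95% Poisson intervals, and the dotted line marks the threshold of 5 Il5 counts. Il1rl1 climbs to 13.6 per 10000 at 20 or more Il5 counts while Hspa1a drops between 0 and 1 Il5 count.

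The Il5-high cells were not uniform in the interleukin-33 receptor. Il1rl1 was counted in 209 of the 599 (34.9%), and in 26.0% of cells thinned to 1000 counts. The 209 cells had a median of 17 Il5 counts and the 390 without an Il1rl1 count a median of 9, at median depths of 3355 and 3078 counts. A cell at 0 may still express the gene at this depth, and the split was made on measured values, so what follows is a description.

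In 205 depth-matched pairs, 27 of 2408 genes (1.12%) were past 2-fold higher in Il5-high cells with Il1rl1 and 27 (1.12%) past 2-fold lower. Klrg1 had 110 counts in cells with Il1rl1 and 6 in cells without it (ratio 18.2, 8.11 to 50.8), Arg1 125 against 14 (ratio 8.88) and Csf2 323 against 66 (ratio 4.87, 3.72 to 6.44). Further genes with the same direction were Cxcl2, a neutrophil-attracting chemokine gene (588 against 165, ratio 3.54), Ccr2 (ratio 3.02, 2.34 to 3.92) and Areg (557 against 263, ratio 2.11). Arg1, Klrg1 and Csf2 thus lay mostly in the part of the Il5-high cells with Il1rl1.

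Il5-high cells without Il1rl1 counts had more of other surface genes. Ccr7, the receptor that guides lymphocytes to lymph vessels, had 13 counts in cells with Il1rl1 against 90 without (ratio 0.144, 0.0737 to 0.258), Jaml, a junctional adhesion gene, 79 against 353 (ratio 0.223, 0.172 to 0.285), the protease inhibitor gene Timp2 27 against 120 (ratio 0.224) and the activation marker Cd83 71 against 178 (ratio 0.397). Il13 was close to equal (479 against 357, ratio 1.33), as were Rora (ratio 1.04), Ccr8 (0.967), Icos (0.921), Il18r1 (0.859) and Il7r (0.808). Gata3 was 1.37-fold higher in cells with Il1rl1 (1.29 to 1.47).

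**Figure D2:**
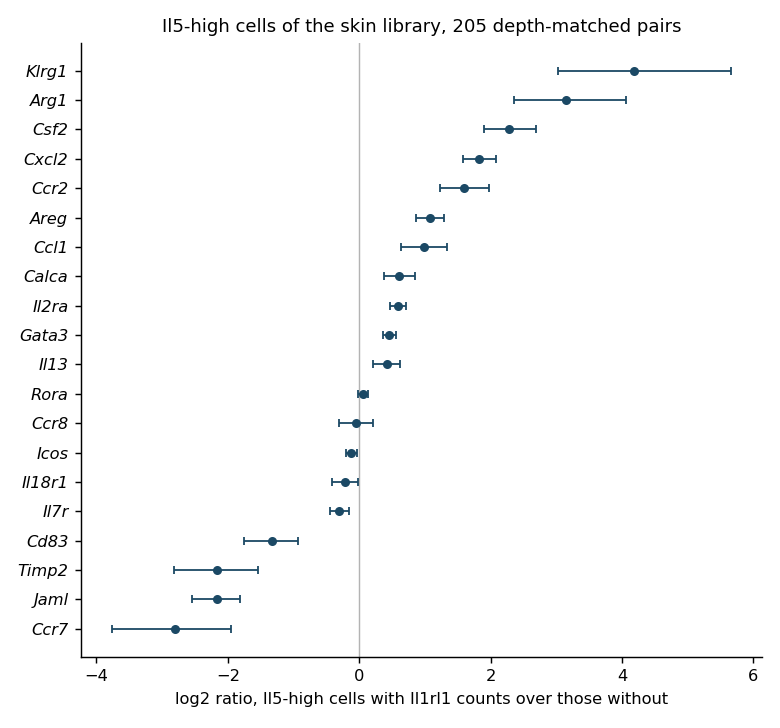
Log2 ratio (horizontal axis) of summed counts per 10000 between Il5-high cells of the skin library with Il1rl1 counts and those without, in 205 depth-matched pairs, for 20 genes (vertical axis). Points are ratios and bars their 95% Poisson intervals. Klrg1 and Arg1 lie far to the right, Rora and Ccr8 near 0, and Jaml and Ccr7 far to the left.

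The dorsal skin libraries took no part in choosing the cells, and the same rule was applied to them. It found 116 Il5-high cells among 564 kept (20.6%) on day 0 and 83 among 454 (18.3%) on day 10, and 102 and 73 of them were matched to Il5-zero cells by depth. The skin and the day 0 library shared 4 cell barcodes, and no other pair of libraries shared any. The dorsal files listed no mitochondrially encoded genes, so no cell was removed by that limit there. Summed counts were tested with edgeR's quasi-likelihood test with library as a block, and p-values were adjusted by Benjamini-Hochberg over 3628 genes.

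In these libraries 57 genes (1.57%) rose and 72 (1.98%) fell in Il5-high cells at an adjusted p under 0.05. Il13 had 289 and 197 counts in the Il5-high cells of day 0 and day 10, against 49 and 64 in the Il5-zero cells, a log2 fold change of 2.08 ± 0.18 (SE, edgeR adjusted p 1.62e-18). Calca had 281 and 190 against 84 and 69 (1.60 ± 0.17, adjusted p 1.29e-13). Il1rl1 had 94 and 112 against 30 and 41 (1.53 ± 0.24, adjusted p 4.02e-07). Gata3 had 563 and 284 against 222 and 180 (1.02 ± 0.13, adjusted p 3.16e-10). Each of these 4 genes was higher in the Il5-high cells of both libraries.

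Csf2 rose as well, at low counts (28 and 18 in Il5-high cells against 5 and 4 in Il5-zero cells, log2 fold change 2.31 ± 0.50, edgeR adjusted p 0.000874), and so did Il2ra (0.98 ± 0.17, adjusted p 1.37e-05) and Areg (0.91 ± 0.16, adjusted p 2.25e-05). Klrg1 had 23 and 17 counts against 5 and 12 and did not pass (1.22 ± 0.45, edgeR adjusted p 0.135). It passed with all Il5-zero cells (edgeR adjusted p 0.0138), a fit without the matching by depth. With the skin library added the edgeR adjusted p was 0.00218, but Klrg1 was named from that library, so this is no separate support. Arg1 had 6 and 8 against 1 and 8 and did not pass either (adjusted p 0.842). Both genes, among the strongest of the skin library, thus had few dorsal counts.

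The calls rest on 2 libraries with 1 residual degree of freedom per gene and a spread shared over genes. DESeq2 called 5 genes higher and 3 lower, the fit without the library block 3 and 1, and the fit without a filter on low counts 0 and 0. Il13 and Calca passed under DESeq2 (adjusted p 4.50e-07 and 4.16e-05) and without the block (0.0129 and 0.0113), and Gata3 and Il1rl1 passed under DESeq2 (0.00829 and 0.0283) but not without the block (0.0866 and 0.220). Without the filter these 4 genes had an adjusted p of 0.899, and among cells with Gata3 and no T cell, myeloid or H2-Aa counts, where 1182 genes were tested and 1 was called, their adjusted p ran from 0.362 to 0.525. The direction of the 4 genes was the same in all these fits.

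**Figure D3:**
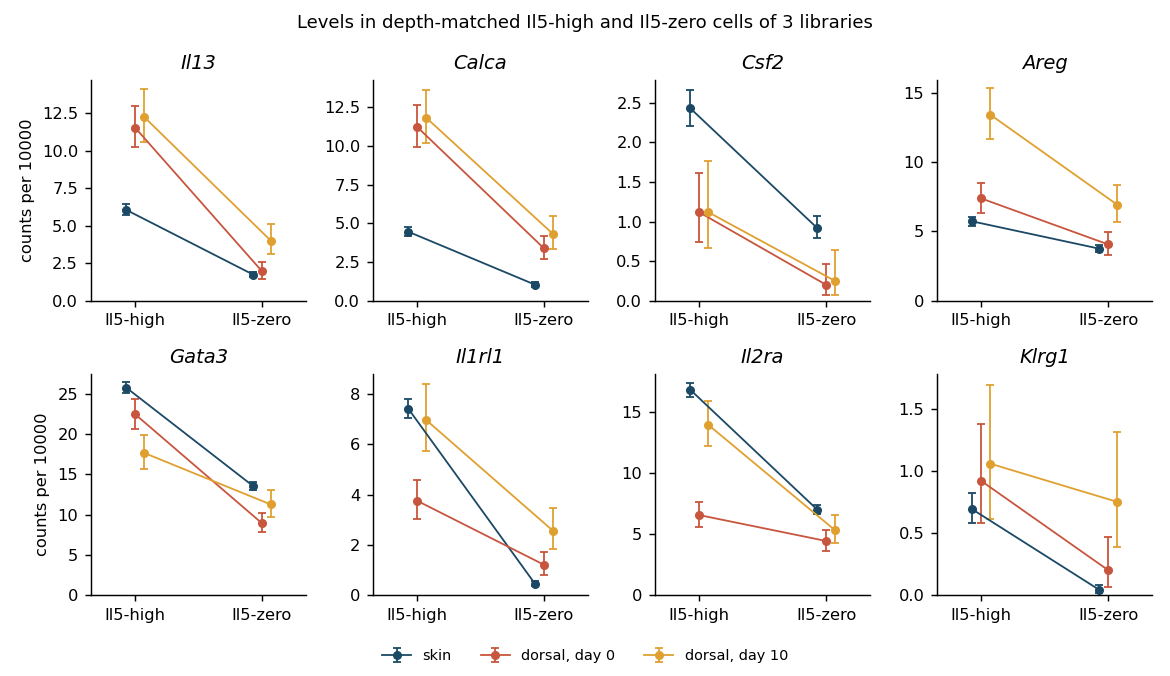
Levels of 8 genes (vertical axes, counts per 10000 total counts) in depth-matched Il5-high and Il5-zero cells of the skin library and of both dorsal libraries. Points are summed counts, bars are 95% Poisson intervals and lines join the sets of 1 library. Il13, Calca, Csf2, Areg, Gata3, Il1rl1 and Il2ra are higher in the Il5-high cells of all 3 libraries, and the intervals of Klrg1 overlap in the day 10 library.

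Of the 46 genes past 2-fold higher in the skin library, 30 had enough dorsal counts to be tested, and 16 were not tested. Of the 30, 12 rose, against 1.57% of all genes, and 1, Ccr2, fell, a call lost at 2 or more Il5 counts (edgeR adjusted p 0.0541), with all Il5-zero cells (0.139), without the block (0.443) and without the filter (0.899). The 12 were Il1rl1, Calca, Il13, Csf2, Il2ra, the lipid-scrambling gene Serinc5, Rad50, Creb3l2, Raph1, Ahcyl2, Igsf5 and Tent5a. Under DESeq2 and without the block 3 of the 30 rose, and without the filter 0 of 45 did. The median over the 30 was a log2 fold change of 0.99, against -0.01 over all genes tested. Of the 75 genes past 2-fold lower in the skin library, 37 were tested in the dorsal libraries, 4 fell (Hspa1b, Ier5l, Tm2d2 and Scart2, listed there under its older symbol) and 1, Igkc, rose. Under DESeq2, without the block and without the filter, none of these lower genes was called in either direction. Hspa1b had a ratio of 0.771 (0.414 to 1.42) on day 0. On day 10 it had 14 counts against 57, and 1 Il5-zero cell held 52.6% of the 57. Genes given here and below by their calls were named after their values were seen.

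The gene lists were counted in the dorsal libraries too. Over all 3628 genes 1.57% rose and 1.98% fell. Of 8 type 2 secreted factors tested, 5 rose (Il13, Csf2, Areg, Calca and the protease gene Furin) and none fell, with a median log2 fold change of 0.66. Of 22 ILC2 identity genes, 6 rose (Gata3, Il1rl1, Il2ra, Lmo4, Cd200r1 and Hlf) and Thy1, the gene of the sorted CD90, fell by 0.49 on the log2 scale. Of 37 genes induced through NFAT, AP-1 and NF-kB, 8 fell and none rose, among them Fos (-0.93 ± 0.16, edgeR adjusted p 9.90e-06), Junb (-0.65 ± 0.11, adjusted p 1.62e-05) and Fosb (-0.78 ± 0.19, adjusted p 0.00509). In the skin library these 3 genes of the AP-1 factor had ratios of 0.684, 0.768 and 0.703, and of the other 5 that fell Zfp36 had 0.678, Rgs1 0.850, Rgs2 1.04 and Crem 1.20. Fosl2 had 3043 counts in Il5-high and 3172 in Il5-zero cells, while Rgs2 and Crem were above 1. Of 6 T cell and 4 MHC class II genes tested none was called, at median log2 fold changes of -0.10 and 0.35. Nor was any of 4 cell cycle genes (median -0.03). Mki67, lower in the skin library, had 16 counts in Il5-high against 7 in Il5-zero cells on day 0 and 6 against 6 on day 10. Top2a had 26 against 19 and 12 against 20. Of 14 glycolysis genes tested 1 rose, Ldha (0.68 ± 0.13, edgeR adjusted p 0.000112).

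Of 6 ILC3 and type 17 genes tested, 3 fell and none rose, against 1.98% and 1.57% of all genes. Tmem176b, an ion channel gene of ILC3s and other type 17 cells, fell by 1.84 ± 0.34 on the log2 scale (edgeR adjusted p 4.89e-05), Tmem176a by 1.32 ± 0.29 (adjusted p 0.000887) and Maf by 0.71 ± 0.22 (adjusted p 0.0410). In the skin library Tmem176b had a ratio of 0.655, and none of 8 ILC3 genes was past 2-fold. The dorsal tables also list the fluorescent reporter tdtomato, which had 18 and 2 counts in Il5-high cells against 57 and 9 in Il5-zero cells and fell by 1.74 ± 0.40 (adjusted p 0.00223). It was picked out after its values were seen, and the labels do not say what drives it in these mice.

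Over all 3503 genes measured in both, 58.4% had the same direction in the skin and the dorsal libraries, and of the 121 among them called in the dorsal libraries 106 did (87.6%). Both comparisons chose their cells by Il5 counts in the same way.

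**Figure D4:**
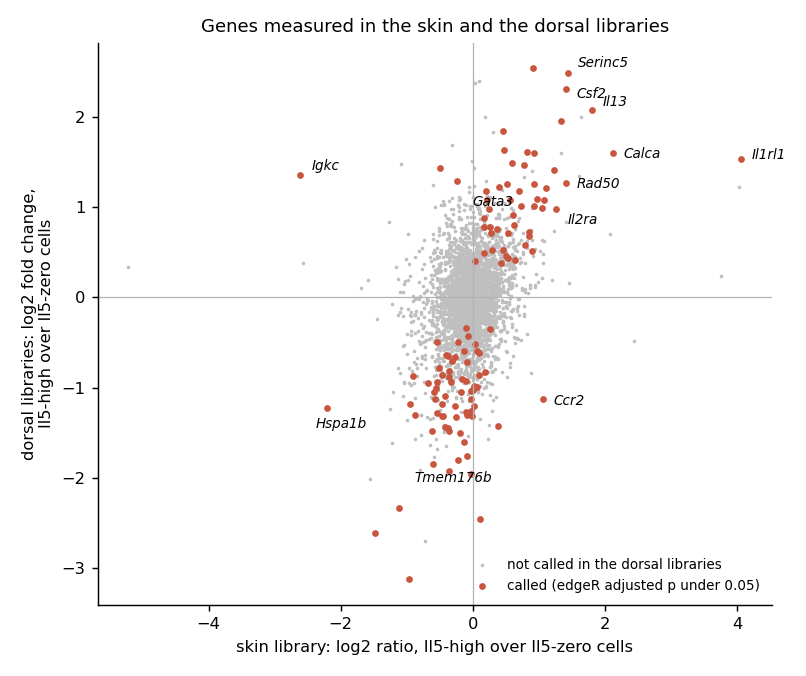
Each point is a gene measured in the skin library (horizontal axis, log2 ratio of Il5-high over Il5-zero cells) and in the dorsal libraries (vertical axis, log2 fold change of the same contrast), 3503 in all. Red points passed edgeR's test in the dorsal libraries. Il1rl1, Calca and Il13 lie to the upper right, Hspa1b to the lower left, and Igkc and Ccr2 where the directions differ.

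Rad50, which encodes a DNA repair protein and lies between Il13 and Il5 on chromosome 11 (53649519 to 53707319, GRCm38), was higher in the Il5-high cells of all 3 libraries. It had 343 counts in Il5-high and 128 in Il5-zero cells of the skin library (ratio 2.65, 2.16 to 3.28), 37 and 18 on day 0 (ratio 2.04) and 18 and 5 on day 10 (ratio 3.58), with a dorsal log2 fold change of 1.27 ± 0.39 (edgeR adjusted p 0.0428, lost without the block, without the filter and with all Il5-zero cells, and given no adjusted p by DESeq2). Its level in the skin library also climbed with the Il5 count, to 2.68 per 10000 at 20 or more counts against 0.705 at 0. Rad50 and Il5 lie 13.5 kb apart.

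Of the other neighbours, Il13 had a higher ratio than Rad50 in the skin library and Csf2 about the same, 3.47 and 2.65. Irf1, an interferon-response factor gene 44.9 kb on the far side of Il5, had 224 counts in Il5-high against 193 in Il5-zero cells (ratio 1.15, 0.944 to 1.40), but a ratio of 0.470 (0.252 to 0.843) on day 0 and 1.14 on day 10. The motor gene Kif3a, beyond Il4, had 38 counts against 38, and 9 against 1 on day 0 and 4 against 3 on day 10. Il4, between Kif3a and Il13, had a ratio of 1.30 with an interval that holds 1. In the skin library, of the measured genes from Aff4 to Csf2, Il13, Rad50 and Csf2 were past 2-fold and Aff4, Uqcrq, Septin8, Kif3a, Il4 and Irf1 were not. Rad50 was looked at because of its place, after its ratio was seen, and whether reads that run on from a neighbouring gene add to its counts was not tested.

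In bulk libraries, Il5 itself stood at 6.79, 44.6 and 30.03 CPM in fm_pos_Gata3flox, against 499, 839 and 1358 CPM in fm_neg_Gata3flox, a log2 fold change of -5.05 ± 0.79 (SE, edgeR adjusted p 0.0346). It stood at 58.9 and 271 CPM in fm_pos and 698 and 728 CPM in fm_neg (-2.11 ± 0.85, adjusted p 0.215). Reporter-positive cells thus had less Il5 in both contrasts, with a called difference only where Gata3 was labelled floxed. CPM here are scaled by TMM factors. In bulk samples, fewer cells of a type and less RNA per cell cannot be told apart.

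Genes of the Il5-high cells were measured in the same bulk contrasts. Of the 46 skin-library genes, all tested, 6 fell and none rose in fm_pos_Gata3flox against fm_neg_Gata3flox, where 0.229% of 17455 genes fell and 0.126% rose. The median log2 fold change was -0.83 over the 46 and 0 over all genes, and 42 of the 46 were negative. Il1rl1 stood at 3.61, 4.89 and 3.71 CPM in fm_pos_Gata3flox and 45.3, 102 and 81.6 CPM in fm_neg_Gata3flox (-4.23 ± 0.57, edgeR adjusted p 0.0179). Csf2 stood at 23.4, 31.6 and 19.8 CPM against 383, 461 and 491 (-4.16 ± 0.44, edgeR adjusted p 0.00679). Ccl1 stood at 14.8, 7.16 and 7.27 CPM against 96.7, 142 and 158 (-3.77 ± 0.43, edgeR adjusted p 0.00914).

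The other 3 that fell were Cxcl2 (-1.48 ± 0.25, edgeR adjusted p 0.0431), Raph1 (-1.37 ± 0.19, adjusted p 0.0234) and the phospholipid scramblase gene Plscr1 (-1.13 ± 0.14, adjusted p 0.0106). Il13 (2.63, 4.25 and 5.68 CPM against 22.9, 22.9 and 33.5 CPM) and Arg1 (3.91 ± 3.48 against 47.3 ± 11.8 CPM, SD, n = 3 each) did not pass the edgeR test (adjusted p 0.0848 and 0.0614). Il4, scarce in the single cells, fell (-3.28 ± 0.33, adjusted p 0.00642). The calls among the 46 depend on single libraries: they numbered 0 without replicate 2 or 3 of fm_pos_Gata3flox, 3 without replicate 1 and 1 without replicate 2 or 3 of fm_neg_Gata3flox, and with the sequencing lane named in the files as a term 2 were left (Csf2 and Ccl1, adjusted p 0.0325 and 0.0439).

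In mice without the floxed label, 6 of the 46 fell and none rose in fm_pos against fm_neg, where 2.11% of all genes fell and 0.624% rose. They were Il1rl1 (-3.96 ± 0.68, edgeR adjusted p 0.0188), Ccl1 (-3.46 ± 0.51, adjusted p 0.0101), Csf2 (-3.21 ± 0.51, adjusted p 0.0142), Arg1, Plscr1 and Wwtr1. With lane as a term 5 of 46 fell, where 210 of all 17455 genes did. With the libraries of these 2 groups alone none of the 46 fell, where 29 of 13637 genes did. Of the 75 genes lower in Il5-high cells, 5 fell (Ccl5, Id3, Tyrobp, Serpinb2 and Mt2) and 1, Pdgfb, rose, and in the floxed contrast 1 fell (Tnfsf9) and 1 rose (Scart2). Tmem176b, lower in dorsal Il5-high cells, rose in both contrasts (2.07 ± 0.17, adjusted p 0.00337, and 1.27 ± 0.21, adjusted p 0.0151).

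In the tamoxifen-treated mice, Gata3 itself stood at 299 and 314 CPM in Gata3KO_tamoxifen and 381 and 581 CPM in WT_tamoxifen (log2 fold change -0.65 ± 0.26, edgeR adjusted p 0.742), where reads outside the deleted part of the gene count too. Il5 stood at 552 and 810 against 873 and 2238 CPM (-1.19 ± 0.49, adjusted p 0.754). edgeR called 0 of 13271 genes in either direction (0% each), with 915 at an unadjusted p under 0.05, and DESeq2 called 71 higher and 125 lower. Of the 46 skin-library genes, DESeq2 called 4 lower and none higher, and of the 75 lower ones 7 lower.

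Il1rl1 stood at 31.7 and 26.7 CPM in Gata3KO_tamoxifen against 78.2 and 76.2 CPM in WT_tamoxifen (-1.40 ± 0.27, edgeR adjusted p 0.585), and Klrg1 at 14.4 and 11.4 against 36.7 and 59.5 CPM (-1.89 ± 0.43, adjusted p 0.585). Il13 stood at 6.76 and 7.49 against 11.3 and 34.5 CPM and Calca at 142 and 114 against 256 and 648 CPM. None of these 4 genes passed the edgeR test. DESeq2 called Calca, Il1rl1 and Klrg1 (adjusted p 0.00247, 0.0314 and 0.0442) but not Il13 (0.580). Csf2 libraries overlapped (187 and 275 against 245 and 293 CPM).

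**Figure D5:**
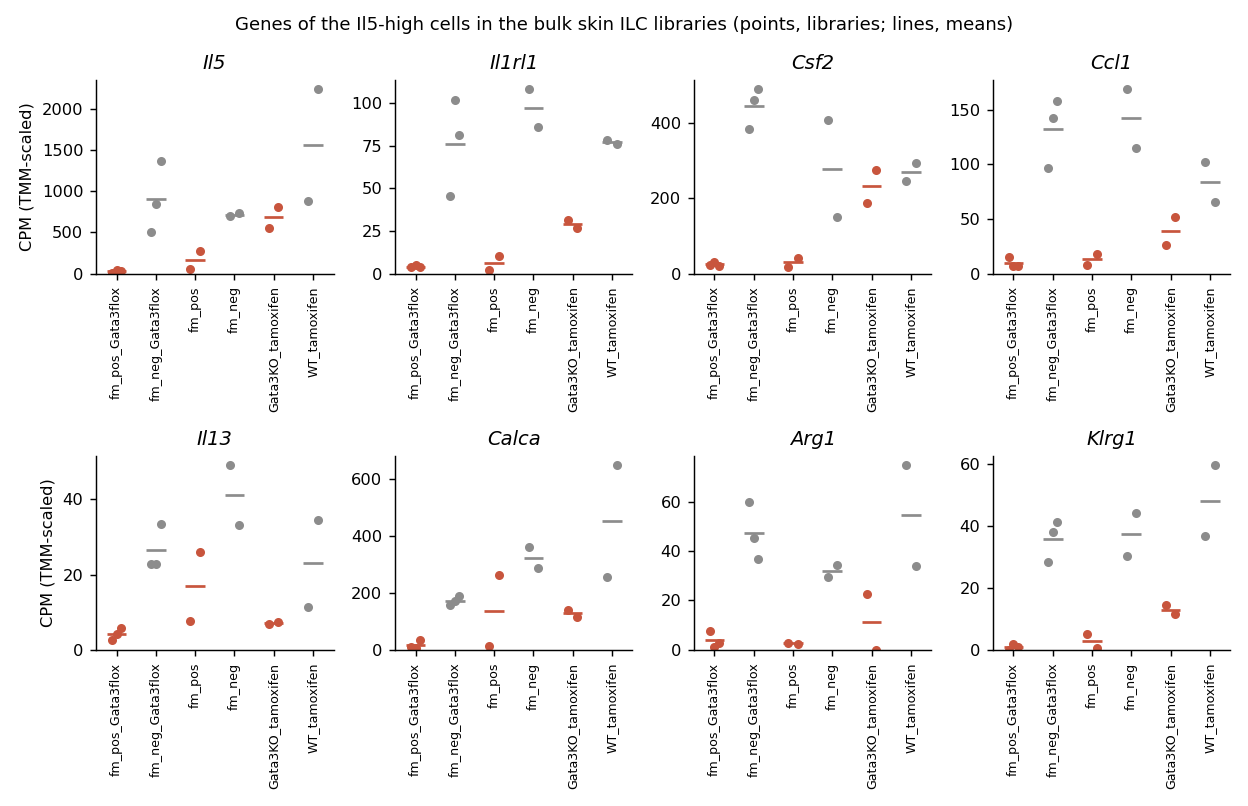
CPM (vertical axes, TMM-scaled, from 0) of 8 genes in the bulk libraries of 6 groups (horizontal axes). Points are libraries and lines their means. Red marks fm_pos_Gata3flox, fm_pos and Gata3KO_tamoxifen, and grey the group to the right of each, with which it is compared. The means of Il1rl1, Csf2 and Ccl1 are lower in each reporter-positive group than in the reporter-negative group beside it.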

How the data were processed

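Per the submitters' processing notes, HISAT2 2.1.0, featureCounts and Subread were used with genome build mm10. The single-cell platform and cell calling are not given in the sources used here. The authors deposited whole-number counts per gene and cell (3 single-cell libraries) and per gene (14 bulk libraries), not normalised. The kept cells summed to 10251255 counts in the skin library, 1204618 on day 0 and 892449 on day 10, with medians of 2358, 2001 and 1827 counts per cell, and bulk libraries held 14450612 to 44098274 counts. Whether reads were counted by strand is not given in the sources used here.

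From these counts the members were chosen at 5 or more Il5 counts, a definition of range and not of a type. Members and gene lists were chosen with earlier results of these data known. Il5-high cells were matched 1 to 1 by total counts, deepest first and without replacement, and counts were summed per set. Intervals have a level of 95% (conditional Poisson, exact Clopper-Pearson for shares). The genes named are Gata3, Il4, Il13, Il1rl1, Areg, Csf2, Il17a, Il22, Ifng and Tbx21, the 12 highest and 8 lowest ratios of the skin library, up to 3 genes past 2-fold per list, and the 2 most abundant markers of each list of other cells. Unnamed gene models, ribosomal, mitochondrial, haemoglobin and receptor segment genes were left out, and other genes were named after their values were seen. A gene that this rule names is not reported here. A doublet caller (scanpy) marked 3 of 4106 cells, so doublets were in effect not removed.

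edgeR 4.0.16 in R 4.3.3 (filterByExpr, TMM, quasi-likelihood test, Benjamini-Hochberg over all genes, Il5 left out of the counts of calls) tested the dorsal sums, the 10 fate-map libraries in 1 fit and the 4 tamoxifen libraries. DESeq2 1.42.0 was an alternative, as were other Il5 thresholds, matchings, scalings, filters on cells and genes, each library left out, a replicate block and lane. The ratio script and the tests were tested on simulated data. Symbols were matched across files through RefSeq synonyms. Single cells were handled in Python 3.11.15 with scanpy 1.11.5.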

Additional observations from a re-analysis of the deposited data

Results flagged for a closer look

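Of the named genes past 2-fold in the skin library with at least 10 counts in each dorsal library, 7 had the opposite direction between Il5-high and Il5-zero cells in both dorsal libraries, and the difference between libraries was not tested. Igkc had a ratio of 0.164 in the skin library and of 2.66 on day 0 and 2.45 on day 10 (51 and 32 counts in Il5-high against 19 and 13 in Il5-zero cells), and it was called higher in the dorsal libraries (log2 fold change 1.36 ± 0.33, edgeR adjusted p 0.00406, lost without the library block at 0.164 and without the filter on low counts at 0.899). Ccr2 had a ratio of 2.08 in the skin library, 0.661 on day 0 and 0.317 on day 10, and was called lower there (-1.13 ± 0.33, edgeR adjusted p 0.0248). That call was lost at 2 or more Il5 counts (adjusted p 0.0541), with all Il5-zero cells (0.139), without the block (0.443) and without the filter (0.899), and DESeq2 gave it no adjusted p. Ccr4 had a ratio of 5.39 in the skin library and of 0.811 and 0.644 in the dorsal libraries, from 9 and 11 counts in Il5-high and 11 and 17 in Il5-zero cells. Tnfsf9 had 0.414 in the skin library against 2.81 and 1.37. Lyz2 had 0.168 against 1.44 and 1.16, Nkg7 0.483 against 1.07 and 1.15, and H2-Ab1 0.446 against 1.51 and 1.03. Of the dorsal ratios of these last 3 genes, the interval excluded 1 for H2-Ab1 on day 0 alone (1.09 to 2.11).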

How the results depend on the processing

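The skin counts of 46 higher and 75 lower genes became 81 and 296 with all Il5-zero cells unmatched, 113 and 418 with at least 30 summed counts, and 20 and 14 with at least 300, while cells with Gata3 and no T cell, myeloid or H2-Aa counts left 39 lower genes. Directions turned, on the log2 scale, for Lyz2 at 10 or more Il5 counts (0.36), for Serpinb2 matched on genes detected (2.16), with 0 Cd3d, Cd3e and Cd3g counts (1.36), under the Gata3 limit (1.68) and without its top cell (1.47), for Ccl5 with 0 Cd3 counts (0.19), under the Gata3 limit (0.33) and without its top cell (0.37), and for Ighm (1.49) and H2-Ab1 (0.29) under the Gata3 limit. Unthinned shares were 42.6% for Il13, 34.9% for Il1rl1, 51.6% for Areg, 23.5% for Csf2 and 32.6% for Calca.

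The dorsal counts of 57 genes higher and 72 lower became 3 and 1 without the library block, 5 and 3 with DESeq2, 0 and 0 without a filter on low counts (393 genes at an unadjusted p under 0.05) and 1 and 0 under the Gata3 limit. With the skin library added to the dorsal ones, 72 genes were called higher and 35 lower, Igkc had a log2 fold change of -0.49 (edgeR adjusted p 0.844) and Ccr2 of 0.12 (adjusted p 0.961).

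In fm_pos_Gata3flox against fm_neg_Gata3flox, 6 skin-higher genes fell, and of the skin-lower genes 1 fell and 1 rose. These counts were 18, 3 and 8 with DESeq2, 17, 2 and 6 without the filter, 18, 2 and 6 with the 2 groups alone and 2, 0 and 0 with lane. In the same order, these fits called 243, 181, 119 and 6 of all genes lower. They called 180, 139, 113 and 4 higher, of 17455, 27319, 14845 and 17455 genes tested. Leaving out each library gave 0 to 4, 0 to 1 and 0, where 0 to 19 of all genes fell and 2 to 8 rose. In fm_pos against fm_neg the counts were 6, 5 and 1. They were 16, 12 and 5 with DESeq2, 14, 13 and 5 without the filter, 0, 1 and 0 with the 2 groups alone and 5, 3 and 1 with lane. In the same order, 1601, 987, 29 and 210 of all genes were called lower here. Called higher were 607, 336, 0 and 40, of 17455, 27319, 13637 and 17455 genes tested. Leaving out each library gave 7 to 14, 3 to 9 and 1 to 4, and without fm_neg replicate 2, 1 skin-higher gene rose. In Gata3KO_tamoxifen against WT_tamoxifen all counts were 0, and DESeq2 called 4 skin-higher and 7 skin-lower genes lower. DESeq2 called 125 of all 13271 genes lower there.

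With the replicate number as a block these counts were 4, 1 and 0 in the floxed contrast, 5, 4 and 1 in the other, and 0 with tamoxifen. All calls came to 14 higher and 33 lower, and to 34 and 192. Same-numbered libraries had correlations of deviations from 0.0169 to 0.0975 in the floxed contrast, -0.0044 in the other and 0.0107 with tamoxifen. These values gave no sign that the numbers pair libraries. They cannot exclude it, since with 2 libraries per group both numbers give the same value. The cause of these changes was not tested. Il5 thresholds and cell sets were set by counts, so depth limits which cells can be Il5-high. Lane, single dorsal libraries and the top cell of a gene were tried after seeing the data. Where leaving out a library left 1 in a group, that library was taken to vary like the others.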
